A study of Mus musculus with 6 samples.

Results

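The genes that differed in the same direction from a control culture in 3 mouse fallopian tube organoid cultures that had lost Trp53 are described here. The 3 cultures and the control account for 4 of the 6 arrays of the series, each a culture before subcutaneous inoculation. On these 4 arrays, 15025 named genes had at least 1 probe well above background on at least 1 array. All 3 Trp53-loss cultures lay on the same side of control for 8775 of these genes, or 58.4%. They lay above control for 33.6% and below it for 24.8%. These differences share 1 control array, so many genes would lie on the same side even if no culture differed. All 3 were at least 2-fold apart from control on the same side for 919 genes.

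Fallopian tube organoids are hollow epithelial structures grown from oviduct cells, and an epithelium of this kind normally holds secretory and multiciliated cells. The culture called Trp53 loss carried the loss of Trp53, with no other alteration named in its label. The Pik3ca/Trp53 culture carried Pik3caH1047R, an activating mutant of a PI3-kinase catalytic subunit, together with Trp53 loss. The Apc/Trp53 culture carried the Apc580D allele of the Wnt pathway antagonist Apc together with Trp53 loss. Control organoids came from Trp53flox/flox mice and held the control vector pLKO.1. The shared medium activates Wnt signalling, through R-spondin1 and CHIR-99021, and further contains Noggin, EGF, Jagged-1 and Y27632. Organoids regrown from a Pik3ca/Trp53 adenocarcinoma and from an Apc/Trp53 cyst fill the other 2 arrays. Nothing in the labels says whether the cultures came from separate animals or clones, by what means Trp53 was lost in each, or how old the mice were.

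Trp53 encodes p53, a transcription factor that is held at a low level by the ubiquitin ligase Mdm2 and is stabilised by DNA damage and other stress. It activates genes for cell cycle arrest, for apoptosis, for DNA repair and for its own control, among them Cdkn1a, which encodes the CDK inhibitor p21, and Mdm2 itself. Through p21 and the Rb family it also lowers genes of replication and mitosis.

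Each culture was measured on 1 one-colour array, so the 3 Trp53-loss arrays differ in genotype and are not replicates of a single group. A level below is the log2 signal relative to the array's 75th percentile, and a difference is a loss level minus the control level. Between 45.4% and 49.9% of probes were well above background on the 3 Trp53-loss arrays, against 48.7% on control, and no spot was saturated. Copies of the same probe differed by a median SD of 0.0428 to 0.0816 on the Trp53-loss arrays and 0.0433 on control. Precision is limited by having 1 array per culture, and p-values measure only the spread between these arrays. The 3 Trp53-loss arrays lay in row 1 of the slide and control in row 2, so slide row and Trp53 loss cannot be told apart in this comparison. Both tumour-derived arrays lay in row 2 beside control, and their values are given where they bear on this. All 3 differences of a gene use the same control array, so a value that is off on that array moves all 3 together.

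Lower genes were shared more widely than higher ones. In single cultures, the share of genes past 2-fold on the higher side was 6.32% in Trp53 loss, 11.6% in Pik3ca/Trp53 and 8.09% in Apc/Trp53. On the lower side it was 7.4%, 10.4% and 9.57% in the same order. At least 2-fold higher in all 3 cultures were 311 genes (2.07% of those measured), and at least 2-fold lower in all 3 were 608 genes (4.05%). Of the genes 2-fold higher in any culture without being 2-fold higher in all, 1605 were so in 1 culture and 685 in 2. The lower side held 1090 genes in 1 culture and 596 in 2. At least 4-fold apart in all 3 cultures were 65 higher and 250 lower genes. A further 204 genes were 2-fold higher in 1 culture and 2-fold lower in another. With each array divided by its median in place of its 75th percentile, the median difference of all genes moved to 0.30, against 0.08, and the split was 486 higher and 485 lower, so the excess of lower genes depends on the scaling. Without the Trp53 loss array the counts were 681 higher and 946 lower, and without the Pik3ca/Trp53 array they were 507 higher and 784 lower.

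**Figure D1:**
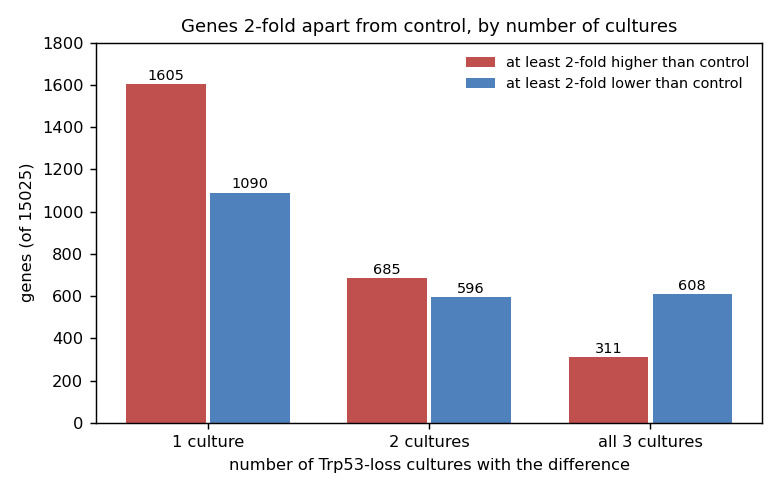
Number of genes (vertical axis, of 15025) at least 2-fold higher (red bars) or at least 2-fold lower (blue bars) than control in 1, 2 or all 3 of the Trp53-loss cultures. On the higher side the count drops to 311 at all 3 cultures, while on the lower side 608 genes were 2-fold apart in all 3 and 596 in 2.

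The Trp53-loss cultures lay further apart from each other on these genes than over all genes. The range over the 3 loss levels had a median of 1.1 log2 units among the 311 higher genes and 0.84 among the 608 lower genes, against 0.53 over all genes. It was under 1 log2 unit for 503 of the 919 genes (54.7%), against 75.2% of all genes. Much of the lower group rested on dim signals. Control alone of the 4 arrays was above background for 262 of the 608 lower genes, and control was not above background for 157 of the 311 higher genes. Single probes read 502 of the lower and 236 of the higher genes. With every dim signal lifted to its array's lowest level still well above background, 169 higher and 420 lower genes were 2-fold apart in all 3.

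A limma fit of the 3 Trp53-loss arrays against control, which assumes that the lone control varies as the loss cultures do, called 0 genes at an adjusted p of 0.05 in either direction. The lowest adjusted p was 0.189, and 1263 genes (8.41%) had an unadjusted p under 0.05. In simulated data of this design, with gene spreads taken from these arrays, the fit recovered none of the changes planted. The 0 calls therefore do not show that no gene differed. The values below describe these 4 arrays, and no gene in them passed the test. Quantile scaling of the arrays let the same fit call 2 genes higher (0.0133%) and 74 lower (0.493%). With the 5 Trp53-loss arrays against control, 79 genes (0.526%) were called lower and 0 higher, with a lowest adjusted p of 0.0208. Of these 79, 74 were above background on control alone of the 4 arrays and 3 had a probe above background on all 4. Those 74 passed the filter on dim probes only through control, the array where they were high. The filter thus favoured the lower side for them, and their signals on the 3 loss arrays were not above background. Calls of this kind therefore cannot show by themselves that a gene was lower.

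The targeted gene was read first, by a single probe. Trp53 had levels of -6.59, -5.02 and -3.57 in Trp53 loss, Pik3ca/Trp53 and Apc/Trp53, against 0.89 in control. Every loss level lay below control, and among the 3 only Apc/Trp53 was still well above background. Taking that background limit for the dim arrays, Trp53 was at least 44.0-fold, at least 33.3-fold and 22.0-fold lower in the 3 cultures. In the tumour-derived Pik3ca/Trp53 and Apc/Trp53 cultures Trp53 was at -1.62 and -6.68. The labels give the same Trp53 loss to all of these cultures. Pik3ca had levels of 0.99, 2.01 and 0.77 in the 3 loss cultures, against 1.56 in control, with Pik3ca/Trp53 the only one above control. Apc lay between -4.60 and -4.10 in the loss cultures and at -4.01 in control, and of the 3 loss arrays only Apc/Trp53 was above background for it. The sources used here do not place these probes relative to the altered exons, so they do not check the Pik3ca and Apc alleles.

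Direct p53 targets of arrest and feedback held many genes that were lower in all 3 cultures. Of 25 measured members, 9 were at least 2-fold lower in all 3 cultures (36%, against 4.05% of all genes) and 0 were at least 2-fold higher. All 3 cultures lay below control for 16 members, on opposite sides for 8, and above control for Sesn1 alone (levels of -0.12, 0.79 and -0.18, against -0.39 in control). Over all genes, all 3 lay below control for 24.8%. The list's median difference was -0.69, against 0.08 over all genes. Promoter windows of RefSeq (GRCm38.p6) that run over 250 bases before and 50 after a gene's start were searched for the p53 response element. This 20-base element was sought with at most 1 mismatch and 4 fixed core positions, in a form that reads the same on both strands. It was found in 8 of 11946 measured genes with a window (0.067%), in 3 of 469 genes lower in all 3 cultures (0.64%) and in 1 of 233 genes higher in all 3 (0.429%). The 3 lower genes were Cdkn1a, Ccng1 and D730003K21Rik, and the higher one was 1600002D24Rik, chosen here for holding the element after its values were seen. The windows of the 3 lower genes are printed because they join a match to a large shared difference, with the element in capitals. They lie at chr17:29090918-29090957 (plus strand), chr11:40755452-40755491 (minus strand) and chr9:116327239-116327278 (plus strand), and Cdkn1a and Ccng1 each carry 1 mismatch and D730003K21Rik 0.
Cdkn1a: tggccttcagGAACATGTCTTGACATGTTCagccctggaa
Ccng1: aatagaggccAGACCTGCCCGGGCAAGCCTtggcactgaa
D730003K21Rik: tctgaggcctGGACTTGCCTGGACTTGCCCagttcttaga

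Cdkn1a was read by 2 probes. The brighter one had levels of 0.13, 0.86 and 1.39 in Trp53 loss, Pik3ca/Trp53 and Apc/Trp53, against 4.19 in control, which makes the loss cultures 16.6-fold, 10.1-fold and 6.94-fold lower. All 3 lay well below control, Trp53 loss the furthest. The other probe was dim and had levels of -6.75, -6.42 and -4.08 in the loss cultures, against 0.73 in control. Ccng1, which encodes cyclin G1, had levels of 0.39, 0.46 and 0.87, against 3.10 in control. Its 3 loss levels span 0.47 log2 units, and its folds of 6.54, 6.26 and 4.71 lower are close to each other. The control of D730003K21Rik, at -2.01, was the only one of the 4 arrays above background for that gene.

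Several of these genes had nearly the same level in the 3 loss cultures. Mdm2 had levels of -0.49 in each of the 3 loss cultures, against 1.04 in control, a 2.87-fold to 2.88-fold lower level. This closeness is a property of the average, because its 2 probes ran in opposite orders. The bright probe had levels of 2.53, 2.74 and 2.82 in the loss cultures, against 3.99 in control, and the dim probe -3.50, -3.72 and -3.79, against -1.91. Both probes of Mdm2 were lower in all 3 loss cultures. Mdm4, the partner of Mdm2 in restraining p53, had levels of -2.62, -2.64 and -2.70, against -1.73 in control, and missed the 2-fold limit at 1.86-fold, 1.88-fold and 1.95-fold lower. Ercc5, an endonuclease of nucleotide excision repair, had levels of -0.85, -0.97 and -0.85, against 0.31, a range of 0.13. Polk, a translesion DNA polymerase, had levels of -2.34, -2.50 and -2.71, against -0.98 in control. The 3 loss levels of each of these 4 genes lay far closer to each other than to control.

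Psrc1, which encodes a microtubule-binding protein, had levels of -0.57, 0.90 and 0.31, against 3.50 in control. Zmat3, an RNA-binding p53 target, had levels of -0.57, -0.86 and 0.17, against 2.47. Trp53inp1, a regulator of p53-dependent arrest and death, had levels of -1.36, -1.32 and -1.75, against 0.60. In these 3 genes the lowest culture was a different one each time, Trp53 loss for Psrc1, Pik3ca/Trp53 for Zmat3 and Apc/Trp53 for Trp53inp1. Plk2, a stress-induced polo-like kinase, had levels of 0.65, -0.24 and 0.93, against 2.09. Other well-known targets did not share a direction, as with Gadd45a at 4.14, 2.48 and 3.41, against 3.95 in control, and Btg2 at 1.75, 2.26 and 1.30, against 1.64. Gtse1, which carries a match to the element at its start, had levels of -3.11, -0.84 and -2.28, against -1.07 in control, so Pik3ca/Trp53 lay above control and the other cultures below it.

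Among p53 targets of apoptosis and metabolism, 9 of 40 measured members were at least 2-fold lower in all 3 cultures (22.5%, against 4.05% of all genes). Gls2 was 1 member at least 2-fold higher (2.5%, against 2.07%). All 3 cultures lay below control for 27 members, against 24.8% of all genes, and the list's median difference was -0.71. Phlda3, which restrains the kinase AKT, had levels of 1.35, 0.30 and 1.75, against 5.24 in control. Every loss culture was at least 11.2-fold lower for Phlda3, and Pik3ca/Trp53 was the lowest at 30.6-fold. Ddit4l, an inhibitor of mTOR signalling, was above background on control alone of the 4 arrays, and was at least 15.1-fold, at least 11.4-fold and at least 18.7-fold lower in the 3 loss cultures. Eda2r, a receptor of the TNF receptor family with a probe above background in Apc/Trp53 and control, was at least 6.94-fold, at least 5.25-fold and at least 7.93-fold lower. Aen, an apoptosis-enhancing nuclease, had levels of 1.79, 1.07 and 1.74, against 3.26 in control.

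Gdf15, a secreted TGF-beta family member, had levels of 4.76, 2.20 and 5.35, against 6.70 in control. Pik3ca/Trp53 stood apart for Gdf15 at 22.7-fold lower, where Trp53 loss and Apc/Trp53 were 3.84-fold and 2.54-fold lower. Ephx1, a microsomal epoxide hydrolase, had levels of 4.94, 5.33 and 5.17, against 6.48, with a range of 0.39. The ephrin receptor gene Epha2, the sulfatase gene Sulf2 and the decoy receptor gene Tnfrsf23 complete the 9. The mitochondrial effectors of apoptosis were lower by less. Bax had levels of 1.79, 2.47 and 2.26, against 3.27 in control, and Bbc3, which encodes PUMA, had levels of -0.19, -0.10 and 0.44, against 0.89. Neither reached 2-fold in all 3. Gls2, a mitochondrial glutaminase, went the other way with levels of -1.07, -1.69 and -0.99, against -2.71 in control, and was 3.10-fold, 2.03-fold and 3.29-fold higher.

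**Figure D2:**
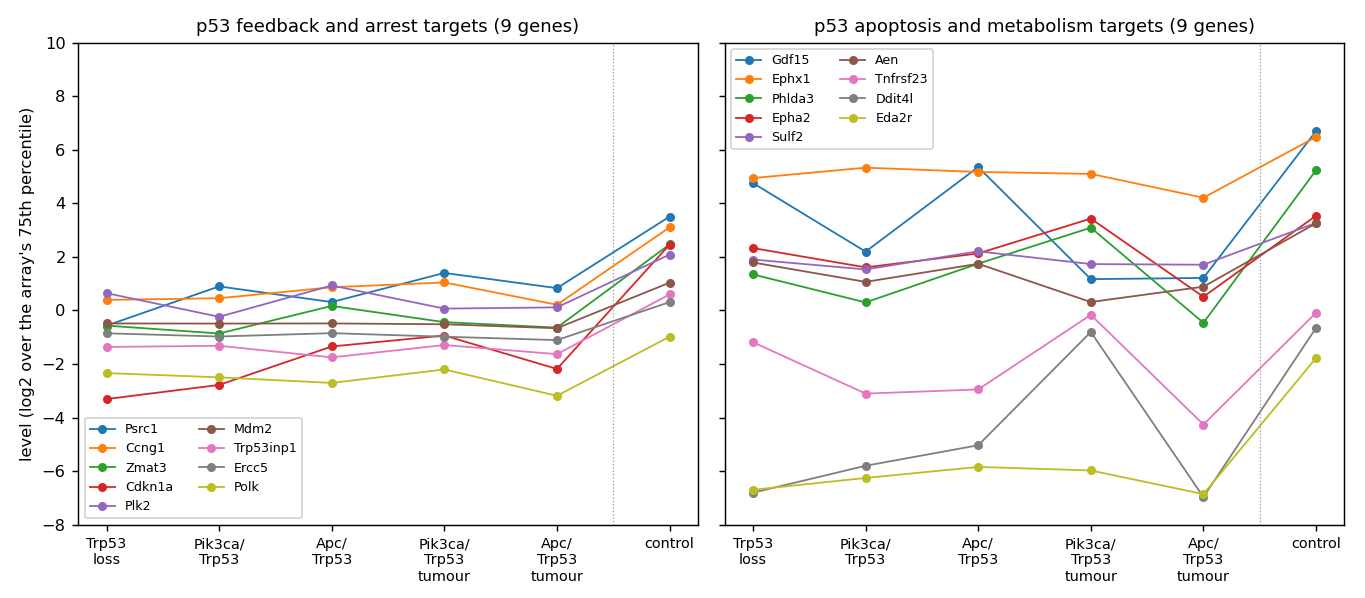
Levels (vertical axis, log2 over the array's 75th percentile) of the 9 arrest and feedback targets (left) and the 9 apoptosis and metabolism targets (right) of p53 that were at least 2-fold lower in all 3 Trp53-loss cultures; each line is 1 gene over the 6 arrays and the lines only link its points. The 3 Trp53-loss cultures and the 2 tumour-derived cultures stand left of the dotted line and control right of it. The genes were chosen for lying below control in the 3 Trp53-loss cultures. In the left panel the tumour-derived cultures also lie below control for every gene. On the right Ddit4l, Tnfrsf23 and Epha2 in tumour-derived Pik3ca/Trp53 come near their control levels.

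The largest shared differences among genes measured on all 4 arrays are plotted by culture. For each gene the value is the mean over its probes that were above background on all 4 arrays, and 12 genes were taken on each side by their smallest difference from control. Sult1d1, a cytosolic sulfotransferase, had levels of 1.23, 1.97 and 1.5, against -3.83 in control, and was 33.3-fold, 55.4-fold and 40.2-fold higher. It had the lowest unadjusted p of the higher genes in the limma fit, 7.16e-05, with an adjusted p of 0.189. Umod, which encodes uromodulin, a glycoprotein known from kidney tubules, had levels of 2.86, 2.57 and 4.98, against -1.60 in control. Lgr5, a receptor for R-spondins that marks epithelial stem cells in several tissues, had levels of 1.26, 0.74 and 2.07, against -2.94. Apc/Trp53 was the highest culture for both Umod and Lgr5, at 95.6-fold and 32.2-fold, but the other 2 cultures were each at least 12.8-fold higher too.

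Tfap2a, which encodes the transcription factor AP-2 alpha, had levels of 0.93, 0.16 and 0.17, against -3.25 in control, and was 18.1-fold, 10.6-fold and 10.7-fold higher. Cyp1a1, a monooxygenase induced through the aryl hydrocarbon receptor, had levels of -0.45, -0.19 and 0.73, against -3.73. Degs2, a sphingolipid desaturase and hydroxylase, had levels of 1.38, 2.88 and 1.72, against -1.18, on 1 of its 2 probes. The other Degs2 probe ran the other way, at -4.0, -4.50 and -4.07, against -3.56, and the mean of both was 2.09-fold, 2.95-fold and 2.30-fold higher. The spread over the loss cultures was 0.77 log2 units for Tfap2a and 1.5 for Degs2, well short of the distance to control. Lypd3, a membrane-anchored protein of squamous epithelium, was the most even of the 12, with levels of 0.07, -0.18 and -0.15, against -2.69 in control. Fkbp10, a prolyl isomerase that assists collagen folding, was the least even, with levels of -0.49, -1.19 and 1.53, against -3.62. Ifitm6 of the interferon-induced transmembrane family, Prom2 (prominin-2), AI854703 and 1700086L19Rik made up the 12, each at least 5.06-fold higher in every culture. Over both its probes, Prom2 was 5.32-fold, 2.01-fold and 4.26-fold higher, and Tfap2a over its 4 probes 11.9-fold, 5.96-fold and 6.14-fold.

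On the lower side, Galnt14, which starts mucin-type O-glycosylation, had levels of -1.97, -3.99 and -3.12, against 3.19 in control, or 35.8-fold, 145-fold and 79.0-fold lower, and with its second, dimmer probe averaged in 16.9-fold, 40.3-fold and 22.7-fold lower. Slco1a5, an organic anion transporter, had levels of -1.80, -2.09 and -2.97, against 2.17. Tnfrsf11b, which encodes osteoprotegerin, had levels of -0.61, -1.52 and 0.17, against 3.62. Each of these was at least 10.9-fold lower in every loss culture, and Slco1a5 lies in a family of similar transporters whose transcripts the probe may share. Wnt9a, a Wnt ligand, had levels of -2.40, -2.68 and -2.93, against 0.85 in control. Irx3, an Iroquois homeobox factor, had levels of -1.61, -2.22 and -3.44, against 1.43. Gask1b, a Golgi-associated kinase homologue, had the narrowest spread of the 12 lower genes, with levels of -2.16, -2.27 and -2.06, against 1.04 in control. It was 9.18-fold, 9.90-fold and 8.59-fold lower, with a mean difference of -3.20 ± 0.10 (SD over the 3 cultures) and an adjusted p of 0.189 in the limma fit.

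Dglucy, a mitochondrial D-glutamate cyclase, was also even, with levels of -0.19, 0.33 and 0.17, against 3.18 in control. The olfactory receptor pseudogene Olfr1372-ps1, whose 2 probes may also read related genes, had levels of -1.98, -2.08 and -2.30, against 0.69. Slc4a11, a plasma membrane ion transporter, had levels of -1.18, -1.82 and -0.84, against 1.80, on the brighter of its 2 probes, and both were lower in all 3. The protease gene Tmprss11g, together with Phlda3 and Cdkn1a, completed the 12 lower genes. All 12 were at least 6.22-fold lower in every loss culture.

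**Figure D3:**
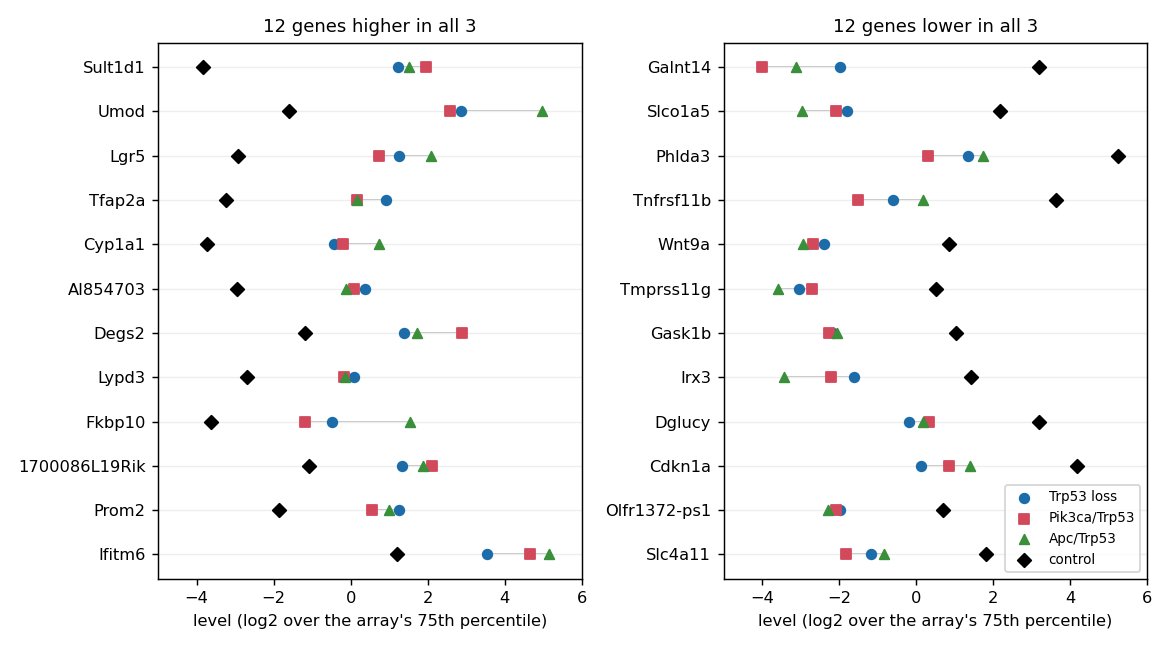
Levels (horizontal axis, log2 over the array's 75th percentile) of the 12 genes with the largest shared difference on each side, for Trp53 loss (circles), Pik3ca/Trp53 (squares), Apc/Trp53 (triangles) and control (diamonds); a grey line spans the 3 loss cultures. Control stands outside the span of the loss cultures in all 24 genes because they were chosen that way. The span is widest for Fkbp10 (2.72) on the left and Galnt14 (2.02) on the right.

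Some shared differences had no measured level on one side. Obp2a, an odorant-binding lipocalin, was above background on the 3 loss arrays and not on control, and was at least 25.9-fold, at least 17.6-fold and at least 40.4-fold higher. Apoc1, an apolipoprotein, was at least 56.9-fold, at least 3.71-fold and at least 43.1-fold higher, so Pik3ca/Trp53 stood apart from the other cultures. Spink4, a protease inhibitor, was at least 11.1-fold, at least 22.6-fold and at least 10.1-fold higher, and the kinesin gene Kif12 at least 11.7-fold, at least 9.14-fold and at least 16.9-fold. Akr1c18, which inactivates progesterone, was at least 14.8-fold, at least 4.33-fold and at least 12.6-fold higher. In the other direction, Krtap1-5, of a multigene family of hair keratin-associated proteins, was above background on control alone and was at least 15.0-fold, at least 11.4-fold and at least 18.6-fold lower. The neuropeptide precursor gene Vgf was at least 10.7-fold, at least 8.13-fold and at least 13.3-fold lower, and Fam163a matched it to the printed digits. Tas2r134, of the bitter taste receptor family, was at least 9.98-fold, at least 7.56-fold and at least 12.4-fold lower. Over all genes, control was the only array of the 4 above background for 321, of which 318 were read by a single probe. The counts for Trp53 loss, Pik3ca/Trp53 and Apc/Trp53 as the only array above background were 204, 210 and 340.

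Cell cycle genes were shared in direction more than in size. Of 50 mitosis and spindle genes, all 3 cultures lay above control for 46 (92.0%, against 33.6% of all genes), below control for Pttg1 alone, and on both sides for 3. Only Kif4, Ndc80 and Plk1 were at least 2-fold higher in all 3 (6%, against 2.07% of all genes). The median difference was 0.63 in Trp53 loss, 2.30 in Pik3ca/Trp53 and 0.91 in Apc/Trp53, with a list median of 1.29, with Pik3ca/Trp53 the furthest from control. Promoters of such genes often hold a short element bound by the DREAM and MuvB complexes, called CHR. Its forms TTTGAA and TTCGAA were sought on both strands over the 100 bases around the start, and 27 of 40 mitosis genes with a window held 1 (67.5%), against 4.54% of all 11946 genes. Over the whole 300-base window the shares were 72.5% and 17.0%. Over the 100 bases, 7.3% of genes 2-fold higher in all 3 cultures held the element, and 4.9% of those 2-fold lower. The 30 bases around the match are shown for the 3 genes that were 2-fold higher in every culture, with the element in capitals. They lie at chr7:122159453-122159482 (plus strand), chr17:71526811-71526840 (minus strand) and chrX:100626072-100626101 (plus strand).
Plk1: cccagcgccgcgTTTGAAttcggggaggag
Ndc80: gaaactttaaaaTTCAAAccgccttgggtt
Kif4: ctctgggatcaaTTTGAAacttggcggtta

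Plk1, the polo-like kinase of mitotic entry, had levels of 2.72, 4.54 and 2.96, against 1.71 in control. Ndc80, which links kinetochores to microtubules, had levels of -1.74, -0.61 and -1.45, against -2.91. Pik3ca/Trp53 was the highest culture for both, at 7.10-fold and 4.90-fold. Kif4, a chromosome-bound kinesin, had another order, with levels of 0.02, -0.50 and -1.86, against -3.06 in control. The securin gene Pttg1, the exception below control, had levels of -0.23, -0.36 and -0.56, against 0.10. Of 39 replication and S phase genes, all 3 cultures lay above control for 33, and 0 lay below control in all 3. Of all genes, 33.6% lay above and 24.8% below control in all 3. Rrm2 alone was 2-fold higher in all 3 (2.56%, against 2.07% of all genes). Rrm2, a ribonucleotide reductase subunit, had levels of 1.99, 2.43 and 2.01, against 0.97 in control. Repair genes had the same leaning with 28 of 36 above control in all 3 and 3 below, against those same shares of all genes. Fancd2, of the Fanconi anaemia pathway, was 1 member 2-fold higher (2.78%, against 2.07% of all genes), over a control that was not above background, and at the background limit it was not 2-fold higher in all 3. Mgmt, which removes alkyl groups from guanine, was 1 member 2-fold lower (2.78%, against 4.05% of all genes).

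Mgmt was among the least even of the shared genes, with levels of -3.14, -6.39 and -1.26, against 3.01 in control. Its folds were 71.1 lower in Trp53 loss, at least 145 lower in Pik3ca/Trp53 and 19.3 lower in Apc/Trp53. Among CDK inhibitors, Rb family members and D cyclins, 2 of 15 were 2-fold higher in all 3 cultures (13.3%, against 2.07% of all genes). In the same list 1 was 2-fold lower (6.67%, against 4.05%). Cdkn2a, which encodes p16 and p19ARF, had levels of 3.84, 3.87 and 3.05, against 1.40 in control, and was 5.42-fold, 5.52-fold and 3.12-fold higher. Cdkn2c, which encodes p18, had levels of -1.0, 0.32 and -0.69, against -2.32. The neighbour of Cdkn2a, Cdkn2b, lay below control in all 3 cultures, with levels of 2.62, 2.32 and 1.81, against 3.49. Cyclin D2 (Ccnd2) had levels of -2.36, -2.59 and -2.16, against -1.11 in control, but lay above control in the tumour-derived Pik3ca/Trp53 and Apc/Trp53 cultures of slide row 2, at -0.71 and 0.53.

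Multiciliated cell markers held the largest share of lower genes of any list. Of 39 measured members, 16 (41.0%) were at least 2-fold lower in all 3 cultures, against 4.05% of all genes, and 0 were at least 2-fold higher. Some of the 16, among them Cdhr3, Dnah6 and Fam183b, passed the filter on dim probes only through control, where they were high. That favours the lower side, and at the background limit Cdhr3 and Dnah6 were not 2-fold lower in all 3. The list's median difference was -1.16, or -0.80 once dim signals were set at the background limit. It was -0.54 with probes above background on all 4 arrays, which 19 members have, -0.41 with normexp correction and -0.35 without a filter on dim probes, so the size depends on members that were dim in the loss cultures. Above background were 25, 20 and 31 members in the 3 loss cultures, against 35 in control. Foxj1, the master transcription factor of motile cilia, had levels of -1.52, -3.33 and -2.62, against 0.08 in control. Mcidas, which starts multiciliated differentiation, had levels of 1.54, 0.94 and 1.5, against 2.55. Both were lower in every loss culture, Foxj1 by 3.02-fold to 10.6-fold and Mcidas by 2.01-fold to 3.05-fold. In bulk RNA, fewer cells of a type and less RNA per cell cannot be told apart.

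Over the whole list, all 3 cultures lay below control for 24 members, above control for 4 and on both sides for 11. Of all genes, 24.8% lay below and 33.6% above control in all 3. The dynein light chain gene Dynlrb2 had levels of -2.55, -4.80 and -3.05, against 0.87 in control, and was 10.7-fold, at least 32.8-fold and 15.1-fold lower. Rsph1, a radial spoke protein, had levels of -3.36, -3.18 and -3.81, against -1.83. Fam183b was above background on control alone and was at least 3.08-fold, at least 2.33-fold and at least 3.82-fold lower, and the axonemal dynein gene Dnah6 at least 1.77-fold, at least 1.34-fold and at least 2.19-fold. The 4 members above control in all 3 cultures were the regulators Rfx3 and Gmnc, the axonemal dynein gene Dnaic1 and the intraflagellar transport gene Ift172. However, Gmnc was not above background on control or Trp53 loss, and at the background limit it was not above control in all 3. Dnaic1 had levels of -3.0, -2.81 and -3.01, against -3.26 in control. Myb had levels of -4.60, -3.91 and -1.40, against -4.51 in control, and Rfx3, a transcription factor of ciliogenesis, had levels of -1.31, -1.23 and -0.89, against -2.22. The summed linear signal of the whole list was 31.0, 56.3 and 33.9 in the loss cultures, against 44.0 in control, so Pik3ca/Trp53 lay above control on that measure. Tubulin genes led that sum there, with Tubb4b at 3.68, 5.03 and 3.88, against 3.96 in control.

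**Figure D4:**
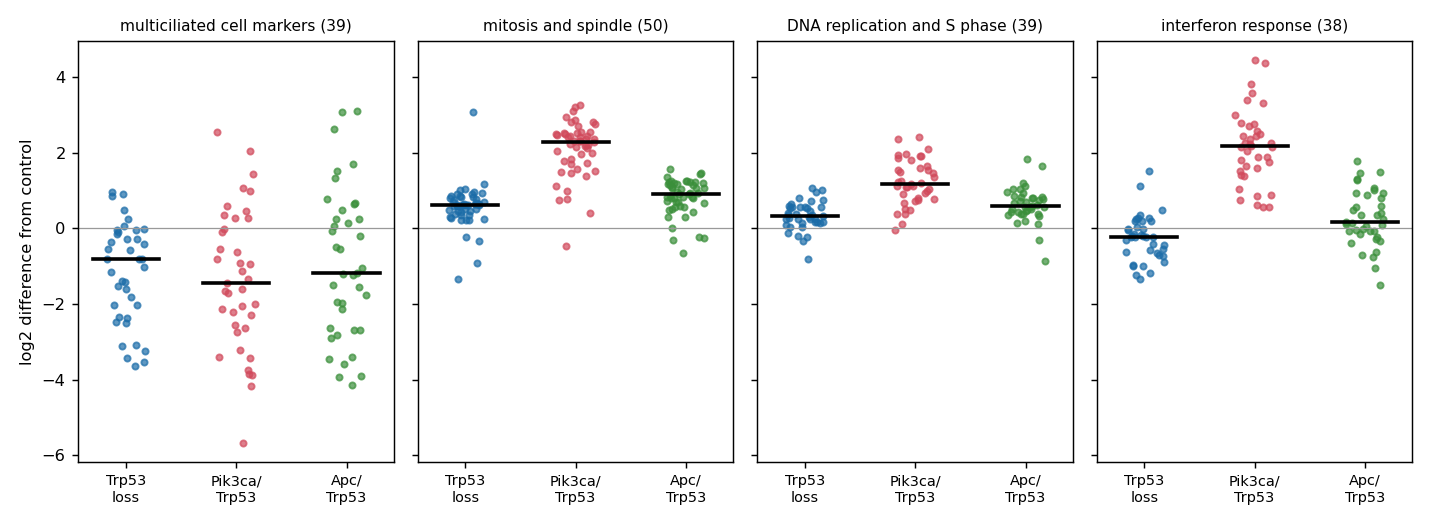
Log2 difference from control (vertical axis) of every measured member of 4 gene lists in Trp53 loss, Pik3ca/Trp53 and Apc/Trp53; each point is 1 gene and each black bar the median of its culture. Multiciliated markers lie mostly below 0 in all 3 cultures and mitosis genes above 0 in all 3, furthest in Pik3ca/Trp53 (median 2.30), while interferon response genes lie above 0 in Pik3ca/Trp53 (median 2.17) and spread around 0 in the other cultures.

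Epithelial and secretory markers had no member 2-fold apart in all 3 cultures, where the shares over all genes were 4.05% lower and 2.07% higher. Epcam had levels of 3.58, 3.88 and 3.50, against 3.51 in control, and of 23 general epithelial genes 4 lay above and 4 below control in all 3. Pax8, a transcription factor of secretory oviduct cells, had levels of -0.03, -0.02 and -0.09, against -0.48, and 0 of 25 secretory markers were 2-fold apart in all 3. Of these 25, all 3 cultures lay above control for 6, below for 9 and on both sides for 10, with a median difference of 0.01. Emx2 and Esr1 were among those above control. Some single secretory genes were lower, by unequal amounts. Ovgp1, which encodes oviductin, had levels of 1.31, 2.84 and 2.96, against 3.70 in control, and Krt7 had 5.42, 3.76 and 4.47, against 5.94. Among 21 squamous and basal markers, Krt14 and Krt15 were 2-fold higher in all 3 (9.52%) and Krt13 2-fold lower (4.76%). However, control was not above background for Krt14 and Krt15, nor Trp53 loss for Krt13.

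Of 26 collagens and basement membrane genes, 5 were at least 2-fold lower in all 3 cultures (19.2%, against 4.05% of all genes) and 2 higher (7.69%, against 2.07%). Fibronectin (Fn1) had levels of -0.75, -1.74 and -1.57, against 1.49 in control. Lama3, a laminin chain, had levels of -1.73, -2.04 and -2.46, against 0.25. Agrin (Agrn) was the most even, with levels of 1.29, 1.26 and 1.25, against 2.32, only just past 2-fold in each culture. The collagen IV genes Col4a3 and Col4a4 were above background on control alone, and Col4a6, another chain of the same collagen, was above background on the 3 loss arrays and not on control. At the background limit Col4a3 was at least 1.49-fold, at least 1.13-fold and at least 1.85-fold lower, and Col4a6 at least 1.84-fold, at least 9.71-fold and at least 2.88-fold higher. The other higher member, Col17a1, was above background in Apc/Trp53 alone of the 4 arrays. Among 26 matrix proteases and inhibitors, 5 were 2-fold lower in all 3 (19.2%, against 4.05% of all genes) and 0 higher. They were led by Adam8, a membrane protease read by 2 probes, with levels of -2.38, -3.10 and -3.79, against 0.20 in control. Serpine2, an inhibitor of serine proteases, had levels of -3.73, -1.20 and -0.14, against 1.56, and was 39.0-fold lower in Trp53 loss but 3.24-fold lower in Apc/Trp53.

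Of 30 TGF-beta and BMP targets, 5 were 2-fold lower in all 3 cultures (16.7%, against 4.05% of all genes) and 1 was higher (3.33%, against 2.07%). Pmepa1, a feedback inhibitor of TGF-beta signalling, had levels of 2.60, 1.92 and 1.70, against 4.29 in control. The ligand gene Tgfb1 and the integrin gene Itgb6, whose product activates latent TGF-beta, were also lower, with Itgb6 at -0.86, -1.38 and -2.30, against 0.21. The exception was Tgfbi, a matrix protein, at 5.0, 4.99 and 6.48, against 3.86 in control. In the tumour-derived cultures of slide row 2 Tgfbi was at 0.83 and 6.12, on both sides of control, with a mean difference of -0.39. YAP targets shared direction more than size. Of 25 members, 1 in Trp53 loss, 13 in Pik3ca/Trp53 and 9 in Apc/Trp53 were at least 2-fold lower. The shares of all genes were 7.4%, 10.4% and 9.57% in the same order. At least 2-fold higher were 1, 0 and 1 members, against 6.32%, 11.6% and 8.09% of all genes. All 3 cultures lay below control for 18 of 25, against 24.8% of all genes, and above control for 0. Only Ankrd1 was 2-fold lower in each (4.0%, near the 4.05% of all genes), with levels of -0.78, -4.85 and -2.27, against 0.45.

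Wnt targets as a list had no common direction, with 9 of 28 above control in all 3 cultures, 7 below and 12 on both sides. These shares are near those of all genes, 33.6% above and 24.8% below. Lgr5 and Ascl2 were the 2 members 2-fold higher in every culture, and 0 were 2-fold lower. Ascl2, a transcription factor of intestinal stem cells, had levels of 1.16, 2.25 and 1.64, against -0.62 in control. Both genes were thus higher also in the cultures whose labels name no Apc allele. Of 28 cytokines and chemokines, 3 were 2-fold higher and 3 lower in all 3 (10.7% each, against 2.07% and 4.05% of all genes), and all 3 cultures lay above control for 7 and below for 12. Csf1, the growth factor of macrophages, had levels of 1.42, 0.88 and 2.41, against -1.11, and the chemokine gene Ccl5 had -1.69, -0.69 and -1.83, against -3.46. On the lower side, Cxcl5, a neutrophil chemokine, had levels of 5.46, 5.27 and 5.40, against 6.81 in control, a range of 0.19.

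The metabolic lists had from 0 to 3 members a side past 2-fold in all 3 cultures. Of 34 cholesterol and fatty acid synthesis genes, all 3 cultures lay above control for 24, against 33.6% of all genes. Among 35 glutathione and NRF2 genes, 3 were 2-fold lower (8.57%, against 4.05% of all genes), Hmox1 (heme oxygenase), Aldh3a1 and Gclm, and Gstt1 was 2-fold higher. Hmox1 had levels of 3.93, 3.53 and 2.82, against 5.21 in control, and Gstt1, a glutathione transferase, had 3.05, 3.09 and 1.44, against -0.09. The hypoxia-induced gene Ankrd37 had levels of 3.31, 3.43 and 2.76, against 1.32. With the glucose transporter gene Slc2a3 it made 2 of 36 glycolysis and hypoxia genes 2-fold higher in all 3 (5.56%, against 2.07%). In the FOXO list the proapoptotic gene Bcl2l11 was the 1 of 22 members 2-fold lower (4.55%, near the 4.05% of all genes).

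Other lists separated the cultures. Interferon response genes lay on both sides of control for 30 of 38 members, with medians of -0.22 in Trp53 loss, 2.17 in Pik3ca/Trp53 and 0.16 in Apc/Trp53. Isg15, a ubiquitin-like protein induced by interferon, had levels of 2.05, 6.09 and 3.34, against 2.26 in control. ATF4 and ER stress genes lay on both sides for 23 of 29, and Notch pathway genes for 10 of 16, with 0 of either list 2-fold apart in all 3. Of all genes, 58.4% had the 3 cultures on the same side. Ifit2 was 1 of the 38 interferon genes (2.63%) and Ciita, which drives MHC class II genes, 1 of 20 antigen presentation genes (5.0%) 2-fold higher in all 3, against 2.07% of all genes. Control was not above background for either, and at the background limit neither was 2-fold higher in all 3. Of 28 ERK feedback and immediate early genes, the ephrin receptors Epha2 and Epha4 were 2-fold lower in all 3 (7.14%, against 4.05% of all genes) and 0 were higher.

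**Figure D5:**
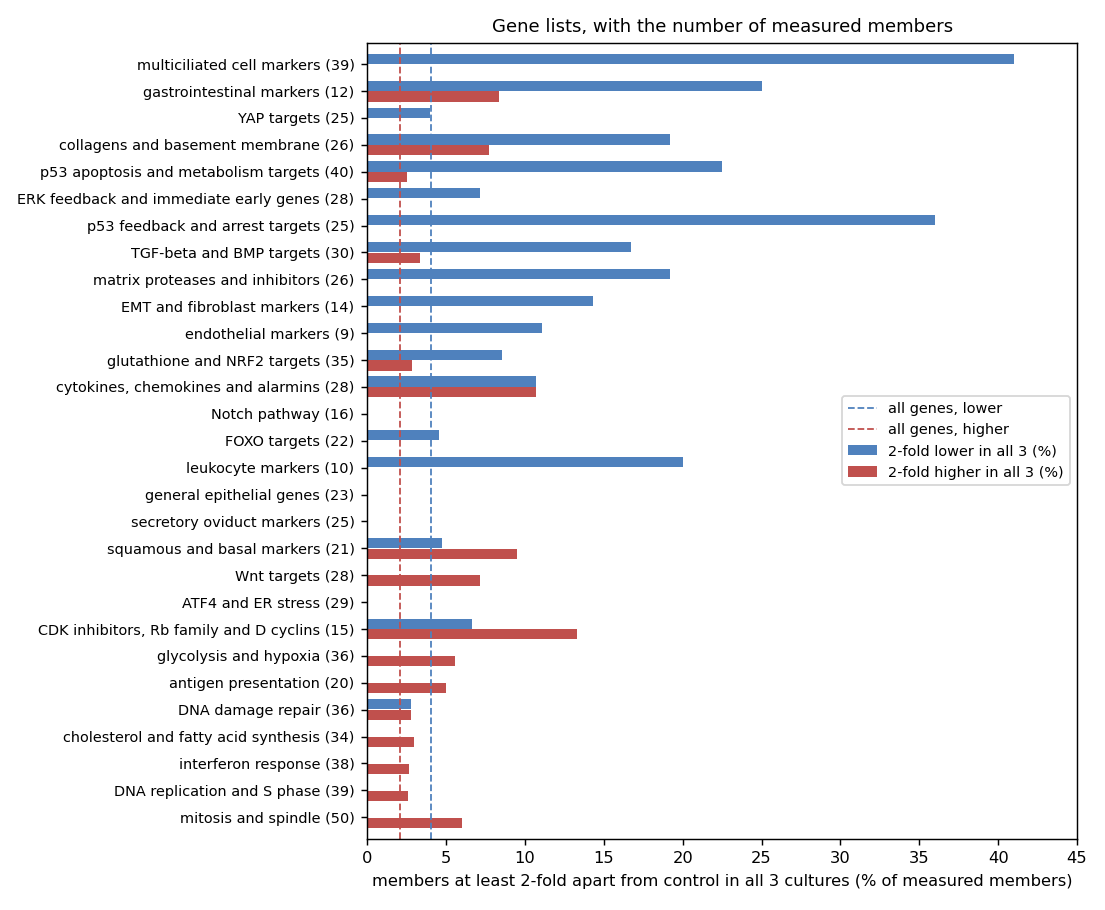
Share of measured members (horizontal axis, percent) at least 2-fold lower (blue bars) and at least 2-fold higher (red bars) than control in all 3 Trp53-loss cultures, for the gene lists with at least 9 measured members, ordered from the lowest median difference at the top; dashed lines give the shares over all genes, 4.05% lower and 2.07% higher. The longest bars are multiciliated markers (41.0% lower) and p53 feedback and arrest targets (36% lower). Some of the lower multiciliated markers passed the filter on dim probes only through control.

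Markers of other cells were measured beside these groups. Over all genes, 4.05% were 2-fold lower in all 3 cultures and 2.07% were 2-fold higher. Of 10 measured leukocyte markers, Laptm5 and Cd14 were 2-fold lower in all 3 cultures and 0 were higher, and the list's summed linear signal was 38.9, 27.7 and 24.3 in the loss cultures, against 82.9 in control. The list's median difference was only -0.06, with 5 members below control in all 3 cultures, 1 above and 4 on both sides. Cd14, which epithelial cells also express, had levels of 4.55, 4.22 and 3.97, against 5.94 in control. It made up most of the control sum. Whether the loss cultures held fewer leukocytes was not tested. Ptprc was not among the measured members. Fibroblast and EMT markers summed to 11.7, 14.3 and 12.1, against 13.9 in control, with Fn1 and Vim of 14 members 2-fold lower in all 3 (14.3%). Vim, an intermediate filament gene of mesenchymal cells, was above background on control alone and at least 3.0-fold, at least 2.27-fold and at least 3.72-fold lower. In the tumour-derived cultures of slide row 2 it was at -1.05 and -2.83, against -2.99 in control, a mean difference of 1.04 in the other direction. Of 9 endothelial markers, 1 was 2-fold lower (11.1%) and 0 higher, with sums of 9.67, 14.8 and 18.8, against 9.08. Of 5 adipose, muscle and mesothelial markers, Pparg was 2-fold lower and 0 were higher. Gastrointestinal markers, of which 3 of 12 were 2-fold lower (25.0%) and 1 higher (8.33%, against 2.07% of all genes), summed to 5.92, 6.16 and 4.38, against 14.7. The part of these markers in the matrix, TGF-beta and cytokine values above was not tested.

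The 2 tumour-derived arrays lay in row 2 of the slide with control and were not used to choose genes. Of the 311 genes higher in all 3 cultures, 187 were at least 2-fold higher in tumour-derived Pik3ca/Trp53 and 247 in tumour-derived Apc/Trp53, against 11.5% and 11.8% of all genes. Of the 608 lower genes, 413 and 508 were at least 2-fold lower, against 13.5% and 13.2% of all genes. These counts use the same control array. Of the 919 genes, 71 were 2-fold the other way in tumour-derived Pik3ca/Trp53 and 13 in tumour-derived Apc/Trp53. At least 2-fold apart on the same side in all 5 Trp53-loss arrays were 154 higher genes (1.03%) and 352 lower genes (2.34%).

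Mdm2, at -0.52 and -0.66 in the tumour-derived Pik3ca/Trp53 and Apc/Trp53 cultures, against 1.04 in control, kept a level close to that of the 3 source arrays. Gask1b was at -2.12 and -2.36, against 1.04, and Dglucy at -0.09 and -0.45, against 3.18. By contrast Umod was at -6.74 in tumour-derived Pik3ca/Trp53 and 4.30 in tumour-derived Apc/Trp53, against -1.60 in control, and Lgr5 at -4.26 and 2.92, against -2.94. Irx3 and Slco1a5 were at 2.28 and 1.56 in tumour-derived Pik3ca/Trp53, near their control levels of 1.43 and 2.17. Cyp1a1 and AI854703 were not above background in tumour-derived Pik3ca/Trp53, at -6.85 and -6.83, although each was at least 7.12-fold higher in all 3 cultures before inoculation. With row 2 alone, Cyp1a1 and AI854703 had mean differences below 0. So did Prom2 over both its probes, while the probe used above was higher in both tumour-derived cultures, by 0.68 and 0.46.

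Genes at the 2-fold limit show how little separates a counted gene from an uncounted one. On the higher side Usp51, with levels of 1.54, 2.16 and 1.78, against 0.54 in control, was counted, and Aldh1l2, with 1.38, 0.54 and 1.71, against -0.46, was not. On the lower side Sgk1, with levels of 2.60, 2.35 and 1.91, against 3.60 in control, was counted, and Pde4b, with -3.06, -3.85 and -3.24, against -2.06, was not.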

How the data were processed

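Total RNA of 6 organoid cultures, 1 per group, was hybridised to 6 one-colour arrays on 1 slide, read in 1 scan. Each deposited scanner file gives spot intensity after background subtraction. The software was Feature Extraction 11.0.1.1 (Agilent), per the file headers, and arrays were not scaled to each other. A smaller matrix deposited by the authors lists log2 values for 2047 probes, without saying how they were centred or chosen. Its column medians were -0.02 in Trp53 loss, 0.15 in Pik3ca/Trp53, -0.32 in Apc/Trp53, -0.05 and -0.20 in the tumour-derived Pik3ca/Trp53 and Apc/Trp53 cultures and 0.03 in control, and its differences between arrays matched those of the scanner values. It served as an alternative.

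Control spots and outlier spots were left out, copies of a probe were averaged, and log2 signals were taken minus the array's 75th percentile. Of 56605 probes, 34566 were named through RefSeq accessions (GRCm38.p6), covering 23787 genes. Probes entered if any of the 4 arrays had them well above background (21947 probes), and a gene takes their mean. The median SD between probes of a gene was 0.12 over 5422 genes with several. Fits used limma 3.58.1 under R 4.3.3 (files read by the data.table package, 1.17.8), with Benjamini-Hochberg adjustment and 2 residual degrees of freedom. On data simulated with gene spreads taken from these arrays, they called no planted change. Tables and figures used Python 3.11.15, matplotlib 3.10.9, pandas 2.3.3 and numpy 2.4.6. A fold given as "at least" takes, for a dim signal, the faintest level its array still called well above background.

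The 30 gene lists, the members and the naming rule were chosen with earlier results of these data known. The rule names the targeted genes with Cdkn1a and Mdm2, 12 genes a side by smallest difference among those measured on all 4 arrays, the 5 brightest a side with no level on the other, the leading members of each list, 6 genes that split the cultures most, the 5 lowest p-values a side and genes next to the 2-fold limit. Some further list members, among them most p53 targets and Foxj1, Mcidas and Rsph1, were named after their values were seen. The scanner files held no mean signal, so the normexp alternative (offset of 50) used the median signal in its place. Promoter windows came from RefSeq. Probes with no named gene were not used, and some genes that the rule names are not reported here.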

Additional observations from a re-analysis of the deposited data

Results flagged for a closer look

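6 genes were at least 2-fold higher than control in 1 Trp53-loss culture and at least 2-fold lower in another, with the widest measured ranges over the 3 cultures before inoculation. With 1 array per culture, none of these differences between cultures was tested. Kap, an androgen-regulated kidney protein, ranged over 9.43 log2 units, with levels of -6.72, 2.71 and -5.11 in Trp53 loss, Pik3ca/Trp53 and Apc/Trp53, against -1.06 in control. Serpinb10, a serine protease inhibitor, ranged over 7.35, with levels of -1.76, -5.96 and 1.39, against -1.81. Gulo, which makes vitamin C in rodents, ranged over 7.18, with levels of -3.53, 3.65 and 0.17, against 0.11. Gata6, an endoderm and heart transcription factor, ranged over 7.11, with levels of -1.40, 0.05 and -7.06, against -2.45. Krt26, a hair follicle keratin, ranged over 6.37, with levels of -0.74, -6.29 and -7.11, against -3.08. Hpcal4, a neuronal calcium sensor, ranged over 6.33, with levels of 0.92, -5.41 and -1.74, against -0.86. Except for Gulo, at least 1 loss array of each gene was not above background. With such signals at the background limit the ranges were 7.59 for Kap, 5.56 for Serpinb10, 4.93 for Gata6, 4.14 for Krt26 and 5.09 for Hpcal4. Pik3ca/Trp53 was the highest culture for Kap, Gulo and Gata6.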

How the results depend on the processing

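Counts of genes 2-fold apart in all 3 cultures moved with the treatment of dim signals, the scaling, the limit and the arrays used. They were 66 higher and 198 lower with normexp background correction, 145 and 238 with probes above background on all 4 arrays, 169 higher with dim signals at the background limit, 108 and 251 of 1296 genes in the deposited value table, 65 and 250 at 4-fold, 154 and 352 with all 5 loss arrays, and 486 higher with median scaling. With slide row 2 only, where the 2 tumour-derived arrays stand in for the 3 cultures, 719 genes were higher. Leaving out 1 loss array gave 430 to 681 higher and 690 to 946 lower genes. Quantile normalization let limma call 2 higher and 74 lower genes, of which 73 were above background on control alone of the 4 arrays, and all 5 loss arrays gave 79 lower. Genes above background on control alone passed the filter on dim probes through that array, which favours the lower side. The other limma alternatives called 0 genes, those that leave out 1 loss array included, which gave 0 to 0 in each direction. The 274 named genes had no call to lose. Among their 3297 alternative values, 21 gained a call, under quantile normalization or with all 5 loss arrays, and 14, of genes 2-fold apart in all 3 cultures, changed sign. The sign changes came from slide row 2 only and slide row as a block, which gave the same values, with mean differences of -1.25 for AI854703, 1.01 for Ccnd2, -0.20 for Cyp1a1, -0.13 for Prom2, -1.37 for Rimkla, -0.39 for Tgfbi and 1.04 for Vim. The cause was not tested. Under median scaling the medians of general epithelial genes, leukocyte markers, Notch genes and FOXO targets turned positive, at 0.16, 0.16, 0.06 and 0.07. No paired analysis was possible because each group has 1 sample and the labels give no shared replicate numbers. With 1 control array, its own spread is unknown.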

Other observations

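Among genes with a probe above background on all 4 arrays, the median difference from control by chromosome lay between -3.23e-05 and 0.189 in the 3 Trp53-loss cultures before inoculation. In tumour-derived Apc/Trp53 the 471 genes of chromosome 13 had a median difference from control of -0.70, against -0.07 to 0.08 on the other chromosomes of the same array and 0.07 on chromosome 13 in Apc/Trp53 before inoculation. Chromosome 13 was singled out after its value was seen, and no test was run on it.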
